A study of Mus musculus with 2 samples.

Results

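Of the 2202 miRNA genes counted in mouse hippocampus, 6 lie beside or inside the long non-coding RNA genes Meg3 and Rian on chromosome 12: Mir770, Mir673, Mir493, Mir341, Mir1188 and Mir370. They were chosen by position and by gene name in the GENCODE M21 annotation. All lie in the imprinted Dlk1-Dio3 region and belong neither to the group antisense to Rtl1 nor to the Mirg cluster. Mir1906-1, Gm23912 and Mir882 of the same stretch also belong to neither. They are not among the 6 and had 0 counts in both libraries. Small RNA of less than 30 nt was sequenced (microRNA-seq) from the hippocampus of adult females of a strain labelled 5xFAD/CAST at 8 to 10 months of age, in 1 group of 2 biological replicates that share a donor entry. The name 5xFAD refers to a transgenic model of amyloid deposition whose transgenes are driven by the neuronal Thy1 promoter, and CAST to an inbred strain derived from Mus musculus castaneus. The labels give neither the zygosity of the transgenes nor how many animals each replicate holds. No mice without the transgenes, no second age and no second tissue were available for comparison, so the data give levels and the spread between 2 libraries.

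An miRNA gene is transcribed as part of a longer RNA, cut to a hairpin and then to a mature strand of about the length sequenced here, whose seed (bases 2 to 8) pairs with target messengers. In the Dlk1-Dio3 region the non-coding RNAs Meg3, Rian and Mirg and the miRNAs among them are expressed from the maternal chromosome, under an imprinting control element upstream of Meg3, while the protein-coding genes Dlk1, Rtl1 and Dio3 are expressed from the paternal one. The region is known for strong expression in brain. Reads here were not assigned to a parental allele.

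The 6 genes spread over 54.6 kb of the plus strand (mm10). Mir770 (ENSMUSG00000076451.1, chr12:109563692-109563785) lies inside Meg3, 22.7 kb from its start. Of the 11 annotated Meg3 transcripts 4 span it, and it is exonic in 1 of them and intronic in 3. Mir673 (ENSMUSG00000076316.1, chr12:109571990-109572080) starts 264 bp after the annotated end of Meg3. Mir493 (ENSMUSG00000077025.2, chr12:109580233-109580315) starts 8507 bp after that end, and neither gene overlaps another annotated gene. Mir341 (ENSMUSG00000070101.1, chr12:109611500-109611595), Mir1188 (ENSMUSG00000080406.1, chr12:109611822-109611941) and Mir370 (ENSMUSG00000065433.1, chr12:109618258-109618336) lie inside Rian, at 7.56, 7.88 and 14.3 kb from its start. Of the 20 Rian transcripts 2 span each of these genes, always as intron. Mir341 and Mir1188 are 226 bp apart in the same intron, and 1 of the 2 transcripts places an exon between Mir1188 and Mir370.

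Both mature arms of each hairpin are shown because a gene's count adds them together and does not tell which arm was read. The sequences are RefSeq's (GRCm38.p6), in which all 6 genes had an entry with 2 arms, and the seed is in capitals.
miR-770-5p: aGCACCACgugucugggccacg
miR-770-3p: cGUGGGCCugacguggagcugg
miR-673-5p: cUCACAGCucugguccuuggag
miR-673-3p: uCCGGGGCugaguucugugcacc
miR-493-5p: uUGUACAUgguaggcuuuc
miR-493-3p: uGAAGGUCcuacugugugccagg
miR-341-5p: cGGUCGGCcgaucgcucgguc
miR-341-3p: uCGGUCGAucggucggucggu
miR-1188-5p: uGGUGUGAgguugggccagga
miR-1188-3p: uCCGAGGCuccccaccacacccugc
miR-370-5p: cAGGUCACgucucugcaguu
miR-370-3p: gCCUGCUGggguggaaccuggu

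The 12 arms carried 12 different seeds, so no pair of these genes shares a seed family. Of the 12 arms 2 shared their seed with another miRNA in the RefSeq table. Of the 1679 mature miRNAs there, 27.9% share a seed with at least 1 other. With only 12 arms, a difference from that share was not tested. The seed of miR-673-5p also occurs in miR-6985-3p, whose gene Mir6985 was at 5.34 CPM (CPM, counts scaled to an equal total of miRNA gene counts per library). The seed of miR-370-5p also occurs in miR-1193-3p, whose gene Mir1193 lies in the Mirg cluster and was at 21.4 CPM. Each of the 12 sequences was found whole in 1 RefSeq hairpin only, and among annotated M21 transcripts only in its own gene, with the exception of both miR-770 arms, which are also part of Meg3. The rest of the genome was not searched. Reads with several genomic positions stand in a line of their own in the tables and are outside the gene counts.

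At least 10 counts in each library, the threshold for calling a gene detected, were reached by all 6 genes, against 17.4% of the 2202 annotated genes. These sets are unlike. The 2202 include undetected genes, while the undetected Mir1906-1, Gm23912 and Mir882 of the same stretch are not among the 6. Together they held 1.08% of the miRNA gene counts in replicate 1 (exact 95% binomial interval 1.07% to 1.09%) and 0.888% in replicate 2 (0.879% to 0.897%), a mean of 0.985% ± 0.137 (SD, n = 2). Most of this came from Mir770, which supplied 71.0% of the 6 genes' counts in replicate 1 and 66.6% in replicate 2 (68.8% ± 3.11, SD, n = 2). The 3 genes in or after Meg3 held 0.760% ± 0.109 of all miRNA counts and the 3 genes inside Rian 0.225% ± 0.0278 (SD, n = 2). The exact intervals cover counting error within 1 library only and treat each read as independent. PCR copies are not independent molecules, so the intervals may be too narrow even for that. No further annotated plus-strand miRNA gene of the stretch from Meg3 to the Mirg cluster had counts beyond the 2 neighbouring groups: Mir1906-1 inside Meg3, Gm23912 inside Rian and Mir882 downstream of Rian had 0 counts in both libraries, which allows levels of at most 0.957 and 0.685 CPM in replicates 1 and 2. The mature miR-1906 has a second gene on the X chromosome, and reads with several positions are outside the gene counts.

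Mir770, embedded in Meg3, was the most abundant of the 6. It had 24091 counts in replicate 1 and 25911 in replicate 2. These correspond to 7682 and 5919 CPM (mean 6801 ± 1247, SD, n = 2). It was rank 28 of all genes and rank 3 in the Dlk1-Dio3 region, behind Mir127 and Mir433. Both libraries of Mir770 lay above both libraries of every other member, 5.08-fold above Mir370 in replicate 1 and 6.92-fold in replicate 2.

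The other 2 genes of the Meg3 side were lower than Mir770. Mir673, just past the Meg3 end, had 2013 and 3845 counts in replicates 1 and 2, or 642 and 878 CPM (760 ± 167, SD, n = 2). Mir493, further downstream, had 129 counts in each library, or 41.1 CPM (exact 95% interval 34.3 to 48.9) in replicate 1 and 29.5 CPM (24.6 to 35.0) in replicate 2. Its mean was 35.3 ± 8.25 CPM (SD, n = 2), the lowest of the 6, at rank 256 of all genes. Within a library Mir770 exceeded Mir673 11.97-fold and 6.74-fold, and Mir673 exceeded Mir493 15.6-fold and 29.8-fold, in replicates 1 and 2. The order of these 3 was the same in both libraries and no ranges overlapped. Level did not fall steadily with distance from Meg3 over the region: the next gene after Mir493, Mir337 of the Rtl1-antisense group, was at 986 ± 409 CPM (SD, n = 2).

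Inside Rian, 2 genes of similar mean level flanked a low one. Mir370, which has been studied as a regulator of lipid metabolism in liver, had 4746 counts in replicate 1 and 3745 in replicate 2, or 1513 and 855 CPM (1184 ± 465, SD, n = 2). Mir341, known from rodents, had 2755 and 5013 counts, or 879 and 1145 CPM (1012 ± 189, SD, n = 2). The libraries disagreed on which of the 2 was higher: the ratio of Mir370 to Mir341 counts was 1.72 (exact 95% interval 1.64 to 1.81) in replicate 1 and 0.747 (0.716 to 0.780) in replicate 2. This ratio is formed within a library and needs no scaling between libraries. Mir1188, 226 bp from Mir341 in the same intron, had 175 and 235 counts, or 55.8 CPM (47.8 to 64.7) and 53.7 CPM (47.0 to 61.0), with a mean of 54.7 ± 1.5 (SD, n = 2). Mir341 exceeded this close neighbour 15.7-fold (13.5 to 18.4) in replicate 1 and 21.3-fold (18.7 to 24.4) in replicate 2.

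**Figure D1:**
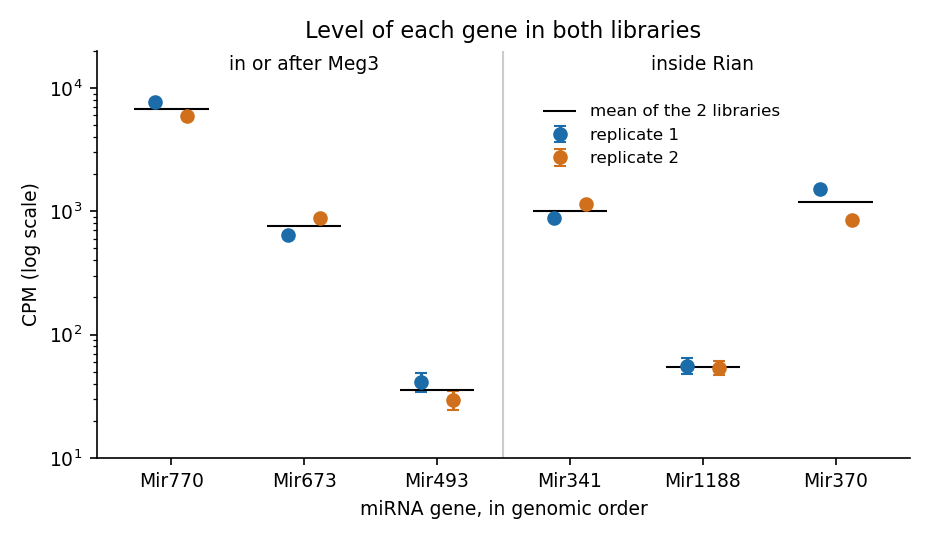
Level of each of the 6 genes in genomic order, in CPM on a log axis; points are the 2 libraries with exact 95% binomial intervals, and bars are their means. Mir770 lies highest, Mir673, Mir341 and Mir370 lie between 642 and 1513 CPM with their libraries in different order, and Mir493 and Mir1188 lie lowest.

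Ordered by mean level, the genes ran Mir770, Mir370, Mir341, Mir673, Mir1188 and Mir493. Of the neighbours in this order, Mir770 and Mir370, Mir673 and Mir1188, and Mir1188 and Mir493 were apart by more than their combined SD. Mir370 and Mir341 were not: their means differed by 173 CPM against a combined SD of 502. Mir341 and Mir673 differed by 252 CPM against a combined SD of 252, although Mir341 was the higher of the 2 by 1.37-fold in replicate 1 and 1.30-fold in replicate 2. In replicate 2 alone Mir370 lay below Mir341, and its ratio to Mir673 was 0.974 (exact 95% interval 0.931 to 1.02). The mature arms measure 19 to 25 nt, so a read stands for about one molecule and levels were not divided by hairpin length; divided by it, the order was the same.

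Counts depended little on strand assignment for these genes. The column counted without regard to strand held the same count as the sense column for each gene in each library, and the other strand held 0 counts. For Mir770 a count of 0 allows an antisense share of up to 0.0125% in replicate 1 and 0.0116% in replicate 2, and for Mir493 up to 2.33% in both. Levels in CPM were higher with the unstranded column, because its total of miRNA gene counts is smaller. The mean share of the 6 was then 1.07% in place of 0.985%. Mir1188 was then at 59.4 CPM in place of 54.7, a shift beyond its SD of 1.5.

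The 6 genes held 12.2% of the counts of all 60 annotated genes taken as the region in replicate 1 (exact 95% interval 12.0% to 12.3%) and 10.5% in replicate 2 (10.4% to 10.6%). The 12 genes of the Rtl1-antisense group held 44.9% ± 1.00 and the 39 genes of the Mirg cluster 43.8% ± 0.195 (SD, n = 2). The median mean level was 886 CPM over the 6 genes, 413 CPM over the Rtl1-antisense group, 176 CPM over the Mirg cluster and 116 CPM over all 384 detected genes. These sets are unlike: all 6 genes were detected, but only 10 of 12 in the Rtl1-antisense group and 34 of 39 in the Mirg cluster. The medians of those 2 groups include the undetected genes, which lowers them. The median of the 6 leaves out the undetected Mir1906-1, Gm23912 and Mir882 of the same stretch, which would lower it. The order of these medians therefore depends on which genes are listed. No test between these groups of genes was made. The highest genes of the Rtl1-antisense group were Mir127 at 24590 ± 432, Mir433 at 10275 ± 1432 and Mir434 at 1349 ± 77.4 CPM (SD, n = 2). Those of the Mirg cluster were Mir487b at 5887 ± 1244, Mir382 at 5635 ± 731 and Mir411 at 5321 ± 562 CPM (SD, n = 2). The 2 libraries of Mir487b, at 6767 and 5007 CPM, overlapped the range of Mir770. Mir370 took rank 12 in the region, Mir341 rank 14, Mir673 rank 21, Mir1188 rank 41 and Mir493 rank 44.

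**Figure D2:**
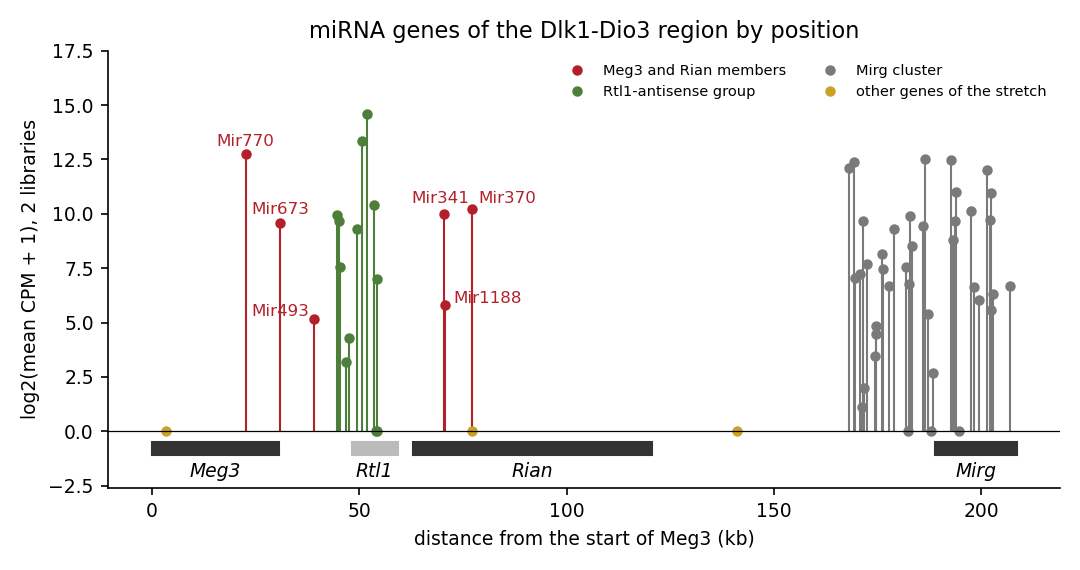
Mean level of the plus-strand miRNA genes of the Dlk1-Dio3 region and of Mir3071, as log2(mean CPM + 1) over the 2 libraries, against the distance from the start of Meg3 in kb; bars below show the annotated genes, dark on the plus strand and light on the minus strand. Mir770 stands alone within Meg3 apart from Mir1906-1 at 0, and Mir341, Mir1188 and Mir370 stand 7.56 to 14.3 kb from the start of Rian.

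The 2 libraries differed for 5 of the 6 genes, and not in 1 direction. Each gene's 2 counts were compared with an exact binomial test after TMM scaling, with Benjamini-Hochberg adjustment over all 459 genes tested; the test compares these 2 libraries and has counting error alone as its null. It called 56.9% of all tested genes at an adjusted p of 0.05, and 75.5% of the 277 genes with at least 100 counts in either library, a level that all 6 genes reached. The call of 5 of 6 therefore lies near what well-counted genes showed in general. Of the 6 genes 3 were called higher in replicate 1, against 29% of all tested genes, and 2 lower, against 27.9%. Both of these shares are over all 459 genes, which were called less often than the 277. Shares by direction were not computed over the 277.

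Mir370 had the widest difference of the 6, with a log2 ratio of replicate 1 over replicate 2 of 0.89 (95% interval 0.83 to 0.96; exact binomial, adjusted p = 9.6e-177). Mir493 followed at 0.54 (0.19 to 0.91; exact binomial, adjusted p = 0.0050), and Mir770 was at 0.45 (0.42 to 0.47; exact binomial, adjusted p = 1.9e-258). The fold differences of Mir770 and Mir370 were 1.36 and 1.86, with 3745 to 25911 counts a library behind them. Mir673 and Mir341 were lower in replicate 1, with log2 ratios of -0.38 (-0.46 to -0.30; exact binomial, adjusted p = 9.8e-22) and -0.31 (-0.38 to -0.24; exact binomial, adjusted p = 1.6e-19). Mir1188 was at 0.12 (-0.16 to 0.41; exact binomial, adjusted p = 0.485), a difference not detectable at this depth. When counts were scaled to all reads of a library, unmapped and multimapping reads included, the call of Mir493 ended (log2 ratio 0.34, exact binomial, adjusted p = 0.0806).

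These shifts lay within the range that other genes showed between the 2 libraries. Over the 277 genes with at least 100 counts the SD of the log2 ratio was 0.79 and the median absolute log2 ratio 0.34. Mir370 exceeded this SD and had a wider ratio than 84.1% of those genes, while the other 5 lay within it. Mir493, Mir770 and Mir673 had wider ratios than 72.6%, 63.9% and 56.3% of those genes, and Mir341 and Mir1188 than 46.2% and 21.3%. The biological coefficient of variation was 0.389, from edgeR's common dispersion over the 459 genes. The members' median log2 ratio was 0.29, compared with -0.0064 over 10 tested genes of the Rtl1-antisense group, -0.097 over 36 of the Mirg cluster and -0.029 over all 459. Of those neighbours, 5 of 10 and 11 of 36 were called higher in replicate 1 and 3 of 10 and 18 of 36 lower. Genes on both sides of 0 were thus found in each group.

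**Figure D3:**
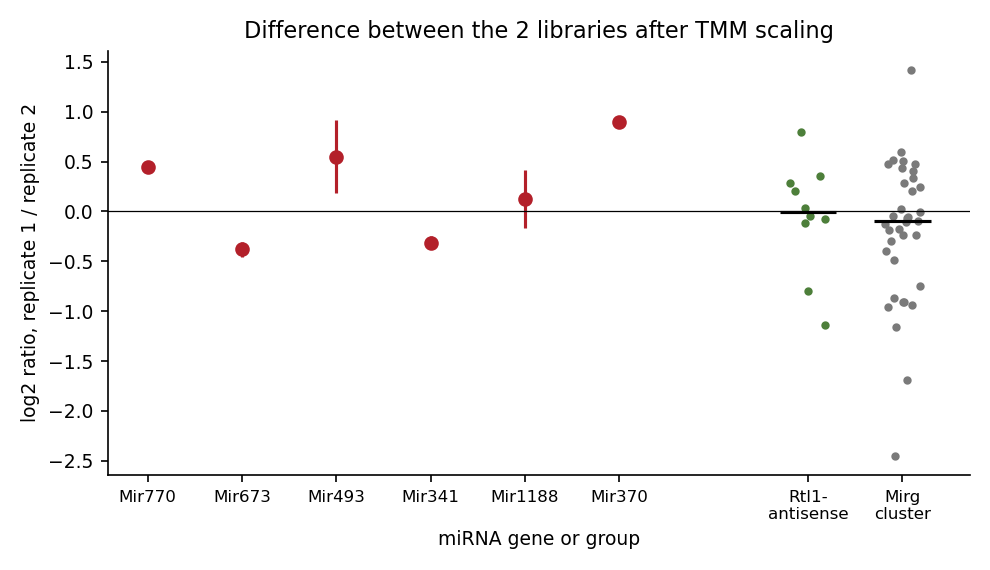
Log2 ratio of replicate 1 over replicate 2 after TMM scaling for the 6 genes, with exact 95% binomial intervals, beside the tested genes of the Rtl1-antisense group and the Mirg cluster, whose medians are black bars. Mir370 lies highest of the 6 at 0.89 and Mir673 lowest at -0.38, inside the range of the Mirg cluster.

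Ratios between 2 of the 6 genes can be formed within a library for 15 pairs. The exact 95% intervals of the 2 libraries were apart for 10 pairs and overlapped for 5, and an overlap does not show that a ratio was equal. The 15 pairs reuse the same 6 genes, and no share was computed over pairs of other genes. Of single genes with at least 100 counts in either library, 75.5% were called different. That share comes from an adjusted test after scaling and is no background for overlap of intervals between pairs. The 10 pairs apart are not a trait shown to be particular to the 6. Mir341 to Mir673 was 1.37 (1.29 to 1.45) in replicate 1 and 1.30 (1.25 to 1.36) in replicate 2, and overlapped. The other overlapping pairs all included Mir493 or Mir1188, whose low counts give wide intervals. The closest pair, Mir341 and Mir1188, was among those apart, at the ratios given above. Mir673 to Mir493 was 15.6 (13.1 to 18.8) and 29.8 (25.0 to 35.8). The ratio of Mir770 to Mir673 was 12.0 (11.4 to 12.5) and 6.74 (6.51 to 6.97), and that of Mir770 to Mir370 was 5.08 (4.92 to 5.24) and 6.92 (6.69 to 7.16), all with intervals apart.

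**Figure D4:**
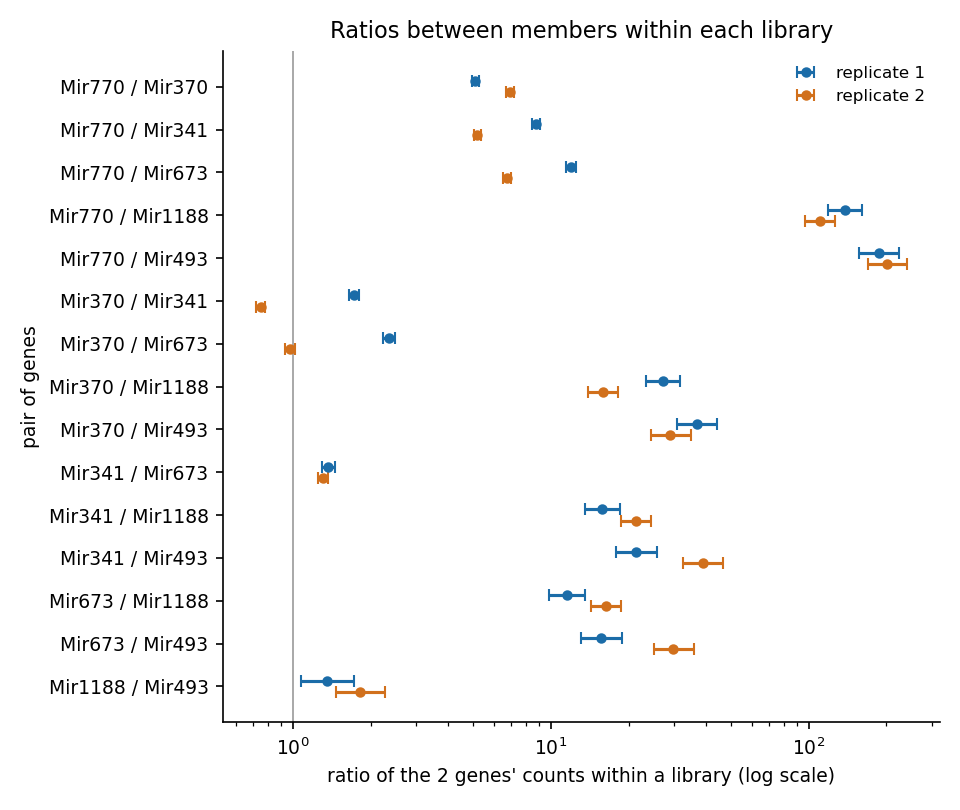
Ratio of 2 genes' counts within each library for all 15 pairs, on a log axis, with exact 95% binomial intervals; the grey line marks equal counts. Mir370 to Mir341 falls on opposite sides of the line in the 2 libraries, while Mir341 to Mir673 and 4 pairs with Mir493 or Mir1188 overlap.

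The hairpins were rich in G and C. Their median GC content was 60.1%, against 51.7% over 1005 RefSeq mouse hairpins, and each of the 6 was above the 51.7%. The median was 46.0% over 48 other hairpins of the region. It was 55.1% over the 12 of the Rtl1-antisense group, also above the 51.7%, and 43.4% over the 36 of the Mirg cluster. Mir770 had the highest of the 6 at 70.2%, above 97.5% of all hairpins, and Mir493 the lowest at 53.0%. The predicted folding energy per nucleotide (RNAfold) was -0.62 kcal/mol for Mir770, stronger than in 96.5% of all hairpins. It was -0.54 for Mir493, -0.52 for Mir370, -0.46 for Mir673, -0.44 for Mir341 and -0.35 for Mir1188, which is stronger than in 28.7%. Mir770 had both the strongest predicted folding of the 6 and the highest count, while Mir493, with the second strongest, had the lowest count. A link between folding and level was not tested.

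The Mir341 hairpin is built of a short repeat. It is printed here with the letters CGGU in capitals.
Mir341 hairpin: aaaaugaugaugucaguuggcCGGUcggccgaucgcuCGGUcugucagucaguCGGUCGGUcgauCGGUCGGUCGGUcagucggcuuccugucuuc
CGGU occurs 7 times in its 96 bases, counted on the RNA strand, and their complement ACCG 0 times. Of the 1005 RefSeq hairpins 11.9% contain CGGU, and 1 of them, Mir341, holds 5 or more copies. The hairpin also has 12 CpG dinucleotides, more than 98.3% of the hairpins, where the median is 1. Its arms share a run of 7 nt, the longest shared by any of the 12 arms, together with the 7 nt shared by miR-770-5p and miR-1188-5p. This motif was picked after the sequences were seen.

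**Figure D5:**
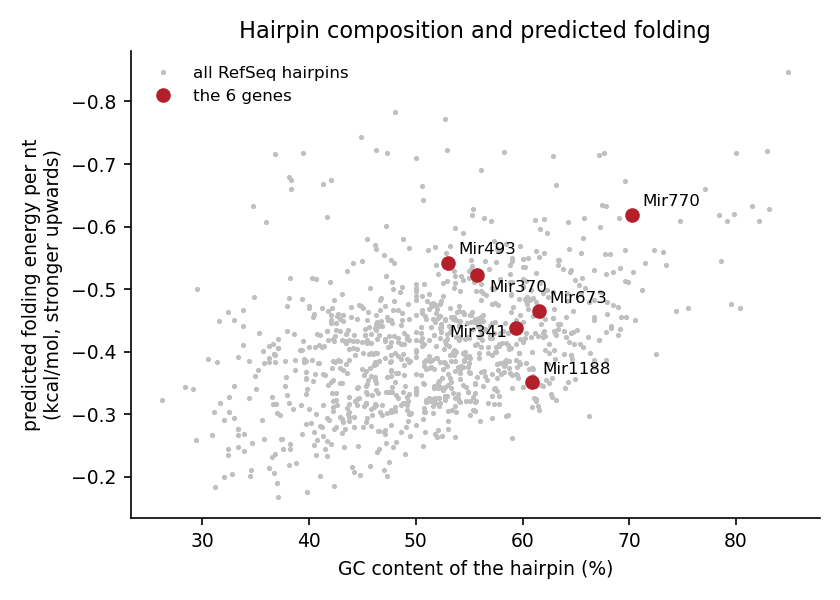
GC content of each RefSeq mouse hairpin in percent against its predicted folding energy per nucleotide in kcal/mol, with stronger folding upwards; grey points are all 1005 hairpins and red points the 6 genes. Mir770 lies at 70.2% GC and -0.62 kcal/mol per nucleotide, towards the upper right, and Mir1188 lowest of the 6.

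Set against all other annotated miRNA genes, the closest in level over the 2 libraries, by Euclidean distance in log2(CPM + 1), lay on other chromosomes. They were Mir143 for Mir770 (distance 0.17), Mir28a for Mir673 (0.040), Mir451a for Mir493 (0.13), Mir129-2 for Mir341 (0.056), Mir190a for Mir1188 (0.058) and Mir34a for Mir370 (0.19). Of these, Mir451a is a red blood cell miRNA, at 37.6 ± 8.21 CPM (SD, n = 2), against 35.3 ± 8.25 CPM for Mir493. With 2 libraries, such likeness describes level and 1 ratio only.

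The libraries held 9962659 and 12761689 reads, of which 3135960 and 4377622 were assigned to miRNA genes on the sense strand. Reads with several positions made up 36.3% and 41.7%. Markers of the labelled tissue were present, with 9 of 13 neuronal and forebrain genes detected at a summed 35144 and 33003 CPM in replicates 1 and 2, and both oligodendrocyte genes at a summed 6793 and 6681 CPM. Of other tissues, liver Mir122 was at 28.4 and 38.4 CPM, 1 of 5 striated muscle genes was detected, with 4 at 0, and red blood cell genes summed to 70.2 and 78.4 CPM. The endothelial Mir126a was at 12521 and 22475 CPM and the choroid plexus gene Mir204 at 1148 and 744 CPM, each the only gene of its list. Within the summed lists single genes differed in opposite directions. Neuronal Mir132 was at 21687 and 13106 CPM in replicates 1 and 2, and Mir128-1 at 4545 and 9069 CPM. Oligodendrocyte Mir219a-2 was at 3298 and 3783 CPM, and Mir338 at 3496 and 2897 CPM. Single markers of several cell types thus differed between the libraries as well. The part of these cell types in the differences of Mir370, Mir770, Mir673 and Mir341 was not tested.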

How the data were processed

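For each library the authors deposited raw read counts in 3 columns over 2202 miRNA genes, headed by 4 summary lines; the notes deposited beside them name mm10 and M21. Not given in the sources used here are aligner, counter and trimming. The columns were read from their values as unstranded, sense and antisense counts, and the sense column was used. All 2202 identifiers matched M21. Library sizes and tests leave out the summary lines: unmapped, multimapping and unassigned reads were 26.5%, 36.3% and 5.72% of the total in replicate 1 and 18.1%, 41.7% and 5.91% in replicate 2.

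CPM used the counts assigned to miRNA genes. Detection required 10 counts in each library, and a count of 0 was taken to allow 3 counts. Single-library values have exact Clopper-Pearson 95% intervals. Ratios used TMM factors of 0.976 and 1.02 (edgeR 4.0.16, R 4.3.3) over genes with 10 counts in either library, with 0.5 CPM added; their intervals come from the counts alone. The exact binomial test was two-sided and was tested on simulated data. With counting error alone, it called 1.93% of unchanged genes, 76% of those changed 2-fold and 94% of those changed 4-fold. The simulation held no further spread between libraries, unlike the data. It therefore gives no false call rate for the data. With 1 group, no contrast of conditions and no quasi-likelihood test could be fitted, and p-values measure only these 2 libraries. Replicates were numbered by the labels' biological replicate number.

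Named genes are the 6 members, the 3 highest of each neighbouring group, other miRNA genes of the stretch, the closest gene in level to each member, seed partners with counts and marker genes whose value is given. The Rtl1-antisense group includes Mir337, Mir540, Mir665, Mir3070a, Mir3070b and the minus-strand Mir3071, and the Mirg cluster runs from Mir379 to Mir3072. The members and lists were chosen with earlier results of these data known. Hairpins were folded with ViennaRNA 2.7.2. Alternatives covered the strand column, denominator, scaling with DESeq2 1.42.0 size factors, count minimum, added CPM and each replicate left out. Tests ran in scipy 1.17.1 under Python 3.11.15, with tables in pandas 2.3.3 and plots in matplotlib 3.10.9.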

Additional observations from a re-analysis of the deposited data

How the results depend on the processing

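With all reads of a library as the denominator, the share of the 6 genes was 0.323% in place of 0.985%, since most reads are assigned to no miRNA gene. With that denominator every log2 ratio shifted by -0.19, the ratio of Mir493 no longer passed (0.34, exact binomial, adjusted p = 0.0806) and that of Mir1188, never called, changed sign (-0.066). The other scalings shifted all ratios by -0.015 to -0.070 and changed no call among the 6. Without 1 replicate the share was 0.888% to 1.08% of miRNA counts and 10.5% to 12.2% of the region's, and 3 to 6 of the 6 genes kept their place in the order by level. The order by hairpin length and TMM factors over all genes were alternatives chosen after seeing the data. Ratios cannot be formed without a replicate. No paired analysis was possible because there is 1 group. Depth limits Mir493 and Mir1188, with 129 to 235 counts a library.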
